A study of Homo sapiens with 18 samples.

Results

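The forkhead, T-box and GATA factor genes are 65 of the 19111 protein-coding genes that GENCODE places on human chromosomes 1 to 22. They were chosen by symbol alone, as FOX with a letter from A to S and a number, TBX with a number, or GATA2 to GATA6. No measured value entered this rule, but earlier results of these data were known when it was set. The set held 48 forkhead genes, 12 T-box genes and 5 GATA genes. H3K27ac, an acetyl mark of active promoters and enhancers, and CTCF, a zinc finger protein that anchors chromatin loops and boundaries, were mapped by ChIP-seq in HEK293T cells, a human embryonic kidney line carrying the SV40 large T antigen. All cells were of this single line. They were either left untreated or treated for 1 day with VPA (valproic acid, which inhibits histone deacetylases) at 1 mM. Each antibody had 3 libraries per treatment with a peak list, and the 6 input libraries were not analysed here. Nothing in the sources said whether the replicates were separate cultures, so each p-value measures the spread between these libraries, which may be technical.

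Forkhead proteins bind DNA through a winged-helix domain, and some of them open closed chromatin for other factors. T-box proteins bind through the T domain and pattern the heart, limbs and mesoderm. GATA proteins recognise the sequence in their name through zinc fingers and direct blood, heart and endoderm development. In many cell types such developmental genes are either silent or lie within wide stretches of active chromatin, and acetylation of lysine 27 on histone H3 marks the active state. Deacetylases remove that mark, and VPA blocks them.

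The H3K27ac lists held 26299 to 29799 peaks in untreated and 38441 to 40992 in VPA-treated libraries, and the CTCF lists held 39818 to 58782 and 36469 to 55325 peaks. Read totals were unknown. Replicate 1 stood apart with both antibodies and in both treatments: 21.3% to 32.1% of its peaks had a local background no higher than the genome-wide level, against 3.49% to 13.6% in replicates 2 and 3, and its H3K27ac peaks covered less of the genome than those of the other libraries of its treatment. Counts that rest on replicate 1 are therefore given with and without it. The promoters of 6 of 7 HEK293T marker genes carried an H3K27ac peak in all 6 libraries, the exception being SOX11 with none, while the promoters of 7 genes that mark other cell types carried one in at most 1 library. The window of one of the latter, the muscle gene DES, had H3K27ac peaks in the 3 VPA-treated libraries only.

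H3K27ac was found at most of these genes but not at all. A peak lay in the gene body or within 10 kb of it in all 6 libraries for 44 of the 65 genes (67.7%, against 73.6% of all genes), in some libraries for 9, and in none for 12. The 12 without a peak in any library were FOXA2, FOXD4L3, FOXD4L4, FOXD4L6, FOXE3, FOXI1, FOXI2, FOXL3, FOXR1, TBX15, TBX19 and TBX5. Whether they were expressed was not examined here. FOXA2 (a pioneer factor of liver and endoderm), FOXI1 (inner ear and kidney intercalated cells), TBX5 (heart and forelimb) and TBX19 (pituitary corticotrophs) are best known from those other tissues. The median share of a window covered by H3K27ac peaks was 6.09% in untreated and 7.60% in VPA-treated cells, against 3.47% and 4.74% for all genes. Of the windows, 12 also held the start site of another protein-coding gene, and FOXC2 with FOXL1 and FOXD2 with FOXE3 lay close enough to share part of theirs.

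The widest acetylated domain lay over FOXC1, which directs mesenchyme, eye and skull development (ENSG00000054598.9, hg38 chr6:1609915-1613897, plus strand). Its 24.0 kb window held 13298, 19545 and 19685 bp of H3K27ac peaks in untreated replicates 1 to 3 and 12092, 17772 and 19872 bp in the VPA-treated ones. That was 73.0% of the window on average in untreated and 69.1% in VPA-treated libraries, at the 99.9th percentile of all genes. The groups overlapped, and the peaks ran through the gene on both sides, with a short gap inside the gene in VPA-treated replicate 1. Wide domains also lay over FOXF1, a factor of lung and gut mesenchyme, with a mean of 33.0% before and 29.8% after VPA, and FOXF2, its close relative, with 31.8% and 28.5%. The window of FOXH1, a partner of SMAD proteins in Nodal signalling, was covered to 30.2% and 35.1%. The repressors TBX3 (29.9% and 32.4%) and TBX2 (24.9% and 25.0%), the kidney stroma factor FOXD1 (28.9% and 30.3%), the pioneer factor FOXA1 (22.7% and 25.1%) and the somite mesoderm factor TBX6 (20.4% and 25.3%) were also among the 10 most covered members. In each of these genes the untreated and VPA-treated libraries overlapped. The FOXH1, TBX6 and FOXA1 windows also held 4, 2 and 1 start sites of other protein-coding genes, so their shares cannot be assigned to the named gene alone. The FOXH1 promoter itself had no peak in replicate 1 of either treatment.

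**Figure D1:**
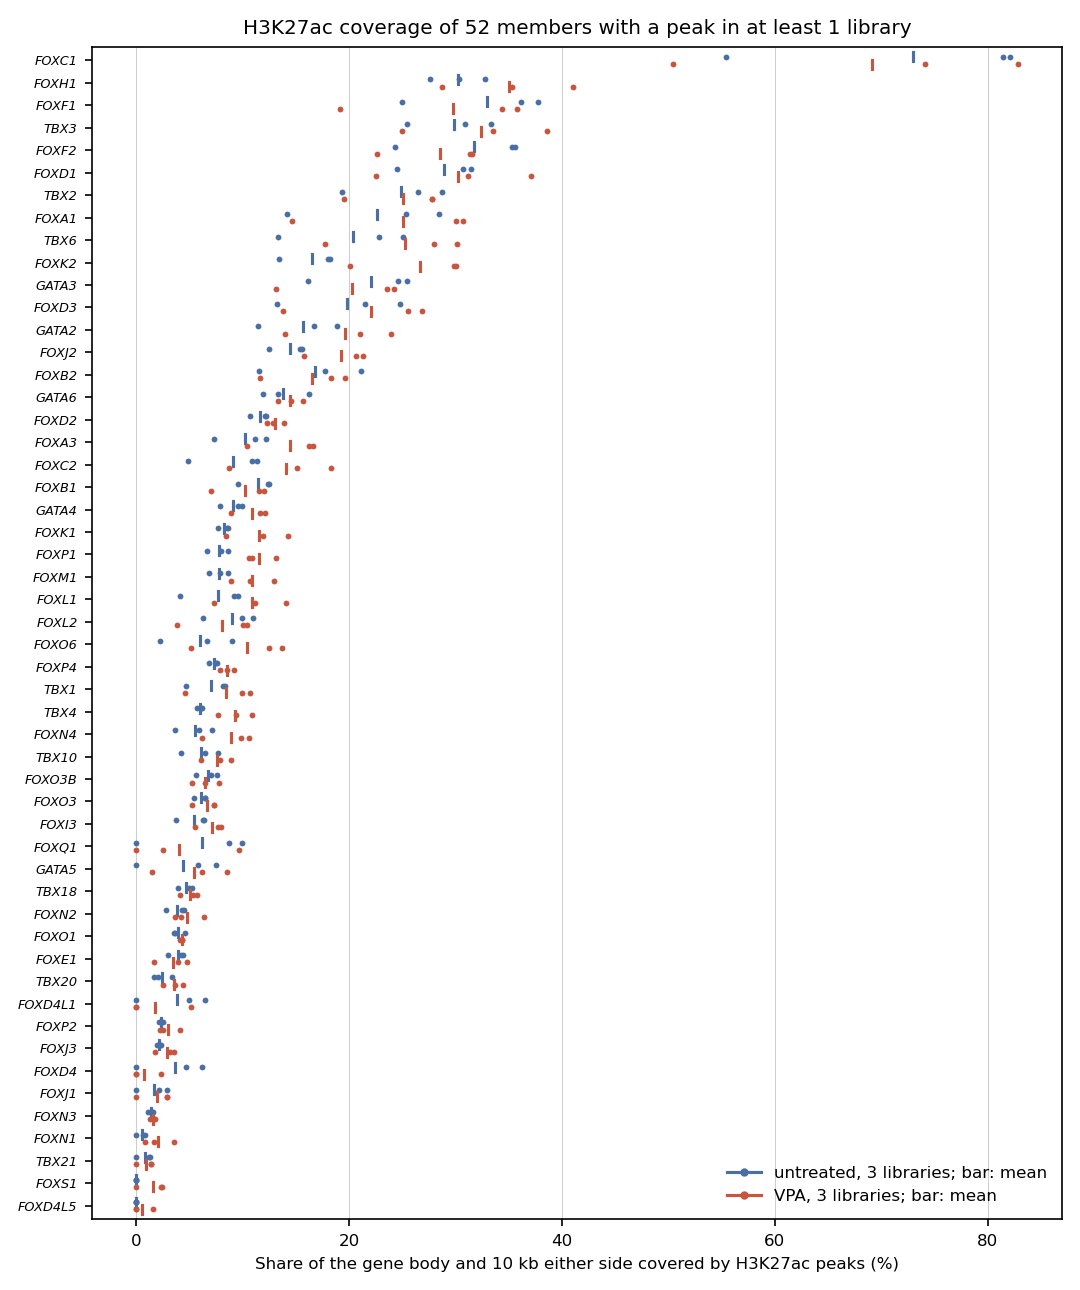
Share of the window (gene body and 10 kb either side, in %) covered by H3K27ac peaks for 52 members with a peak in at least 1 library, ordered by the mean over all libraries. Points are single libraries and bars are means of 3, blue for untreated and red for VPA. FOXC1 stands alone at about the right edge, and for the genes just below it the colours overlap.

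Across the 65 windows together, H3K27ac peaks numbered 172, 201 and 193 in untreated and 202, 232 and 227 in VPA-treated replicates 1 to 3. The means were 189 ± 15.0 (SD, n = 3) and 220 ± 16.1, a ratio of 1.17, where all genes together gave 1.33. Covered length came to 253.5, 353.8 and 346.7 kb before and 303.2, 445.9 and 415.7 kb after VPA, a ratio of 1.22 against 1.34 for all genes. The covered length overlapped between treatments because replicate 1 was short in both, but within each replicate number the VPA-treated library was the longer. With every list limited to its strongest peaks up to the length of the shortest list, the mean peak number differed by -22.7 after VPA, so the direction of the peak number depended on the longer VPA lists.

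Gains in covered length were found at few of the genes. For 8 of 65 (12.3%), namely FOXD2, FOXJ2, FOXK2, FOXM1, FOXN1, FOXP1, FOXP4 and TBX4, every VPA-treated library covered more bases than every untreated one, against 26.5% of all 19111 genes, and for 0 every VPA-treated library covered less, against 0.157%. With 3 libraries against 3 the exact permutation test cannot give a p below 0.1, so no single gene could pass 0.05. The deviations of libraries with the same replicate number went together for H3K27ac, so pairs were also compared: 27 genes (41.5%) were higher in all 3 pairs, against 61.9% of all genes, and 4, FOXB1, FOXF1, FOXF2 and GATA3, were lower in all 3, against 0.984%. Without VPA replicate 1, 31 genes were higher throughout, against 63.6% of all genes. Without untreated replicate 1, 5 were lower throughout, the same 4 and FOXD4, against 1.57%. Leaving out replicate 1 of both treatments gave counts of 31 and 5, against 64.2% and 1.67%.

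The 3 FOXP genes, which act in brain, lung and lymphocytes, and the 2 FOXK genes, which bind promoters of metabolic genes, held most of the added length, the greater part of it in FOXP1 and FOXK2. FOXP windows had 61.8, 72.8 and 76.2 kb of H3K27ac peaks in untreated and 89.3, 118.3 and 92.1 kb in VPA-treated libraries, without overlap. FOXK windows had 27.7, 35.7 and 35.6 kb and then 38.3, 56.5 and 58.8 kb, again without overlap. FOXP1 (ENSG00000114861.24, chr3:70954693-71583978, minus strand) went from 43237, 51502 and 55913 bp to 68495, 85303 and 70506 bp, a ratio of 1.49. It held 44, 42 and 45 peaks before and 56, 56 and 49 after VPA, and the map of its peaks shows the added length in clusters deep in the gene. FOXK2 (ENSG00000141568.21, chr17:82519713-82644662, plus strand) went from 19391, 26421 and 26151 bp to 29170, 43534 and 43250 bp, a ratio of 1.61. The window also held the start site of WDR45B, and these lengths include a tall peak past the end of FOXK2 in every library. With the gene body only, FOXK2 still showed no overlap. Its peaks numbered 15, 13 and 15 before and 14, 16 and 15 after VPA, a similar number, and the map shows both longer, merged peaks and added ones. Both genes, with FOXJ2, kept the non-overlap when the lists were limited to equal length, and no other member showed it there.

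**Figure D2:**
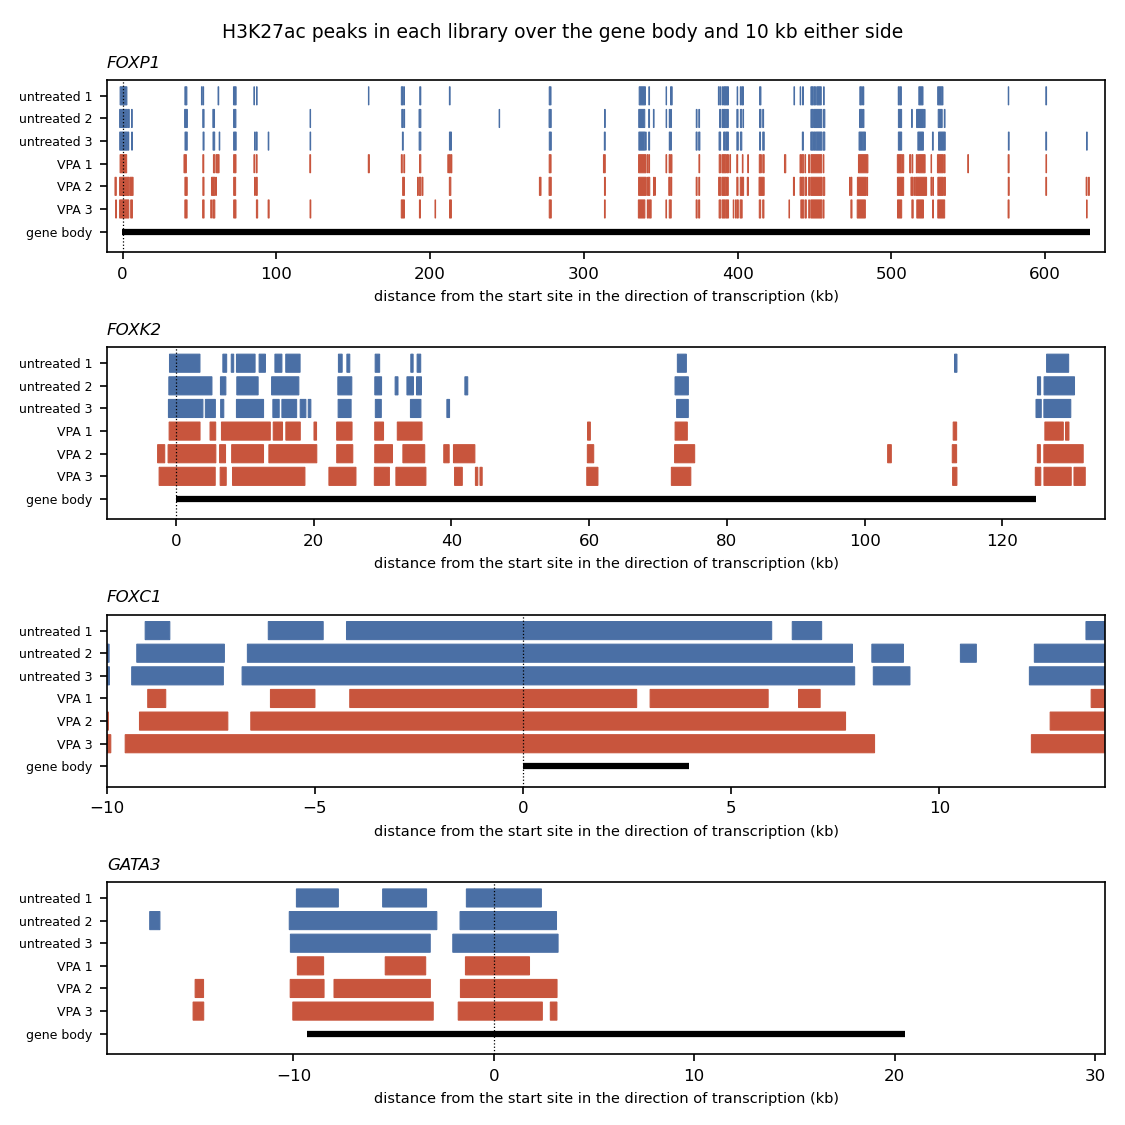
H3K27ac peaks of each library over the windows of FOXP1, FOXK2, FOXC1 and GATA3, with the distance from the start site in kb in the direction of transcription on the horizontal axis and 1 row per library. Blue bars are peaks in untreated and red bars in VPA-treated libraries, outlined so that narrow peaks stay visible, the black bar is the gene body and the dotted line the start site. FOXK2 went from a mean of 23988 to 38651 bp covered. FOXC1 peaks span the gene in every library, unbroken except for a gap between 2.73 and 3.05 kb in VPA-treated replicate 1.

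Among the other genes without overlap, FOXJ2, a widely expressed factor, had 5336, 6572 and 6664 bp before and 6750, 9110 and 8849 bp after VPA. FOXM1, which drives genes of mitosis, had 2687, 3093 and 3397 bp and then 3529, 5129 and 4211 bp, with 1 peak in each untreated library and 2, 3 and 3 in the VPA-treated ones. TBX4, a hindlimb and lung mesenchyme factor, had 3236, 3200 and 2998 bp and then 5712, 4920 and 4028 bp. In TBX4 the gain lay away from the promoter, which had no peak in any library. FOXP4 gained from 5170, 5683 and 5800 bp to 6509, 6985 and 5985 bp, and its lowest VPA-treated library lay just above its highest untreated one. FOXD2, a neural crest and kidney stroma factor, had 2412, 2761 and 2738 bp and then 3154, 2915 and 2773 bp. FOXN1, the thymus epithelial factor, was near the floor, with 346, 443 and 0 bp and then 868, 450 and 1873 bp. FOXD2 and FOXN1 met the criterion only narrowly.

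Of the 4 genes that were lower in every pair, FOXF1, FOXF2 and GATA3 had over 20% of their window covered in untreated cells and FOXB1 had 11.5%. FOXB1, which acts in the hypothalamus and spinal cord (ENSG00000171956.7, chr15:60004234-60061730, plus strand), went from 7388, 9674 and 9571 bp to 5447, 8929 and 9283 bp. GATA3, the master regulator of T helper and mammary luminal cells (ENSG00000107485.18, chr10:8045378-8075198, plus strand), went from 8030, 12690 and 12234 bp to 6528, 11741 and 12067 bp. FOXF1 went from 6220, 9396 and 9010 bp to 4761, 8911 and 8556 bp. FOXF2 went from 6340, 9254 and 9202 bp to 5884, 8223 and 8161 bp. When the pairs were ignored, the treatments overlapped in all 4 through untreated replicate 1 alone, whose value was low. Among the 11 members covered to over 20% in untreated cells none was higher in every VPA-treated library, where 21.0% of the other genes of that coverage were. By pairs, FOXA1, FOXH1 and TBX6 among them were higher and FOXF1, FOXF2 and GATA3 lower.

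The remaining GATA genes differed among themselves. GATA2, which acts in blood stem cells and endothelium, had 3854, 5641 and 6359 bp before and 4723, 8082 and 7111 bp after VPA, without a peak at its own promoter in any library. GATA4, a heart and endoderm factor, had 8151, 9828 and 10207 bp and then 9158, 11961 and 12505 bp. GATA6, which shares these tissues, had 6302, 8606 and 7051 bp and then 7031, 8274 and 7709 bp. GATA5 was the least covered, with 0, 2436 and 1881 bp and then 465, 2776 and 2003 bp. The groups overlapped for all 4. By pairs GATA2, GATA4 and GATA5 were higher in every pair, as 61.9% of all genes were, unlike GATA3.

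No promoter of the set was switched on or off in every library. Within 1 kb of the start site, 36 of 65 genes (55.4%, all genes 61.0%) had an H3K27ac peak in all 6 libraries, 21 had none in any, and 8 had one in some. A peak in all 3 VPA-treated and no untreated libraries was found at the promoter of 0 members, against 0.209% of all genes, and the opposite at 0. Of the promoters without a peak, those of GATA2, TBX4, TBX10, FOXL2, FOXN1, FOXS1, FOXD4, FOXD4L1 and FOXD4L5 lay in windows with a peak elsewhere in at least 1 library.

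CG dinucleotides, which are dense at many active promoters, were counted in the promoters. RefSeq promoter sequences (GRCh38.p14, 250 bases before to 50 after the start) were matched for 49 of the 65 members (75.4%) and 14622 of all genes, and with under 80% matched the count is void as a check of the whole set and describes only the genes it holds. The median number of CG dinucleotides was 32 in 29 members with a promoter peak in all libraries and 16 in 17 members with none, against 28 and 5 for all genes. Peaks were scored at the GENCODE start. For FOXN3, TBX1, TBX4 and TBX5 the counted promoter lay 201932, 4075, 4066 and 1868 bases from it, so count and peak describe different places there. The sequences of 4 members, with CG in capitals, show promoters acetylated in every library with few CG (FOXB1) and with many (FOXP1 and FOXK2), beside a promoter acetylated in no library (FOXI1). They lie at chr15:60004061-60004360 on the plus strand, chr3:71583679-71583978 on the minus strand, chr17:82519482-82519781 on the plus strand and chr5:170105647-170105946 on the plus strand.
FOXB1: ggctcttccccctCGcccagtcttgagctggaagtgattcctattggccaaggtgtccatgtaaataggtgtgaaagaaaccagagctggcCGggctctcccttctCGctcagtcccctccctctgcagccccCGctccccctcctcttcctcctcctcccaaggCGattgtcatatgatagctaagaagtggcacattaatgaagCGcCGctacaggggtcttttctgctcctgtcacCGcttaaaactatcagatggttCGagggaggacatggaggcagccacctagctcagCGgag
FOXP1: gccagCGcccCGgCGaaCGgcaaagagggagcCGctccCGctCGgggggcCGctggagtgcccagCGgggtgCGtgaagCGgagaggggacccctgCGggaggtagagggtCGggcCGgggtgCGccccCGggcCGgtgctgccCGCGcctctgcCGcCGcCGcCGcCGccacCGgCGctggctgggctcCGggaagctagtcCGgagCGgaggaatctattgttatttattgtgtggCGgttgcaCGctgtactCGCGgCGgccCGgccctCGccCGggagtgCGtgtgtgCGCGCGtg
FOXK2: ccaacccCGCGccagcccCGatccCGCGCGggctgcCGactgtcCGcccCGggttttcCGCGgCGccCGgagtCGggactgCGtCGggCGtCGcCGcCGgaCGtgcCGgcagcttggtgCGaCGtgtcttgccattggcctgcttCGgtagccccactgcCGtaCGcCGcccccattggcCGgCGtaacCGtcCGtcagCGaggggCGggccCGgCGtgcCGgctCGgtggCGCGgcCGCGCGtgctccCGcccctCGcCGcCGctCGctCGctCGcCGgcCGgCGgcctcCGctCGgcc
FOXI1: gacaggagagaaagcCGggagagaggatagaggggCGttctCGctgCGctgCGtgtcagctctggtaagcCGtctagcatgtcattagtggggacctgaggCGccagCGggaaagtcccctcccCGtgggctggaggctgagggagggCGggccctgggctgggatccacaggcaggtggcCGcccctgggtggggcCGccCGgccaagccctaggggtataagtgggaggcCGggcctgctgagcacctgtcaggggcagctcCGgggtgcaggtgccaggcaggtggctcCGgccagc
FOXB1 held 10 CG, FOXP1 41, FOXK2 55 and FOXI1 16. FOXB1 was thus acetylated in every library with fewer CG than FOXI1, which was acetylated in none.

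The 6 near-identical copies FOXD4, FOXD4L1, FOXD4L3, FOXD4L4, FOXD4L5 and FOXD4L6 were close to bare. Only FOXD4, FOXD4L1 and FOXD4L5 had any H3K27ac peak, in at most 3 libraries each, and none of the 6 had a CTCF peak. FOXD4 had 0, 1369 and 1030 bp in untreated and 0, 509 and 0 bp in VPA-treated libraries. These genes lie in duplicated DNA, where short reads cannot always be assigned to 1 copy, so their values are uncertain. As the pair with the longest aligned stretch, the RefSeq promoters of FOXD4 (chr9:118368-118667, minus strand) and FOXD4L6 (chr9:41128632-41128931, minus strand) are given with the bases that differ in capitals.
FOXD4: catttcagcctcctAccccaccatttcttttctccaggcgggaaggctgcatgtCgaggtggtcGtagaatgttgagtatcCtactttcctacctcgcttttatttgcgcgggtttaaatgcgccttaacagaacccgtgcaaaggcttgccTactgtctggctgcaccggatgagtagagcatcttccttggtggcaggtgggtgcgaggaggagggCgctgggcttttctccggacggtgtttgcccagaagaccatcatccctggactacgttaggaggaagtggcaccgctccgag
FOXD4L6: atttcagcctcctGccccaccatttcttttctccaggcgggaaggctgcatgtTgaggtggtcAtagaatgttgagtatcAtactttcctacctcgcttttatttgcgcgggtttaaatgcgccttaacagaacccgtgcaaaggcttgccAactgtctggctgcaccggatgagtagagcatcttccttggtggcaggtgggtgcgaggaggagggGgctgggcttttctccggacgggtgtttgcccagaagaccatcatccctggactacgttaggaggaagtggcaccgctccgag
The pair shared 293 of 299 aligned bases, with 1 further base in a gap, and 215 aligned bases of FOXD4L3 and FOXD4L4 were all identical. Of the 15 pairs, 10 aligned over at most 15 bases, so the promoter windows in the table do not show all 6 copies to be alike.

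Where H3K27ac was present in every library, its height was compared. Merging the peaks of the 6 lists gave 285 regions in the members' windows, of which 109 held a peak in all 6 libraries. In the limma test on the log2 fold enrichment at the summit, which is the number of stacked fragments over the local background that the peak caller modelled, 0 of 109 passed a Benjamini-Hochberg adjusted p of 0.05 over all 18407 such regions, where the background was 0% (2 member regions and 301 of all had an unadjusted p under that value). With the replicate number as a block, 32 of the 109 passed, 6 higher and 26 lower after VPA, against 4.73% higher and 11.8% lower of all regions. On the pileup, the fragments at the summit over the background coverage of the library, taken in each library at the peak of highest fold enrichment in the region, 31 passed without a block, 5 higher and 26 lower, against 3.66% and 11.7%. Both fits called the same 27. Thus the calls below hold only when the replicate numbers are used or the local background is left out.

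The calls were split by place. Of 32 regions whose summit lay within 1 kb of the member's own start site, 18 (56.3%) fell and 0 rose in the paired fit, where 15.8% of all promoter regions fell; on the pileup 16 (50%) fell, where 15.1% did. Without replicate 1 the counts were 10 (all promoter regions 10.1%) and 27 (84.4%, against 72.6% of all promoter regions), so the pileup excess was smaller there. Promoters that fell included those of FOXB1, FOXP1, FOXO3, FOXF2, GATA6, FOXD1, TBX2, FOXB2, TBX1, FOXD2, FOXK2, FOXJ2, TBX3, FOXJ3, TBX18, FOXN2 and FOXF1. In 3 of these, FOXJ2, FOXJ3 and FOXN2, only the paired fit made the call. Of the 67 member regions with no promoter at the summit, 6 rose and 8 fell in the paired fit, or 8.96% and 11.9%, against 8.91% and 7.17% of all such regions. All regions were divided into 3 equal classes by mean log2 summit pileup over background coverage. In the tallest class 25.2% of all regions fell in the paired fit, and 22 of its 39 member regions (56.4%) did. Without replicate 1 these shares were 16.2% and 33.3%, and on the pileup without replicate 1 they were 92.9% and 92.3%, where the members did not stand out.

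**Figure D3:**
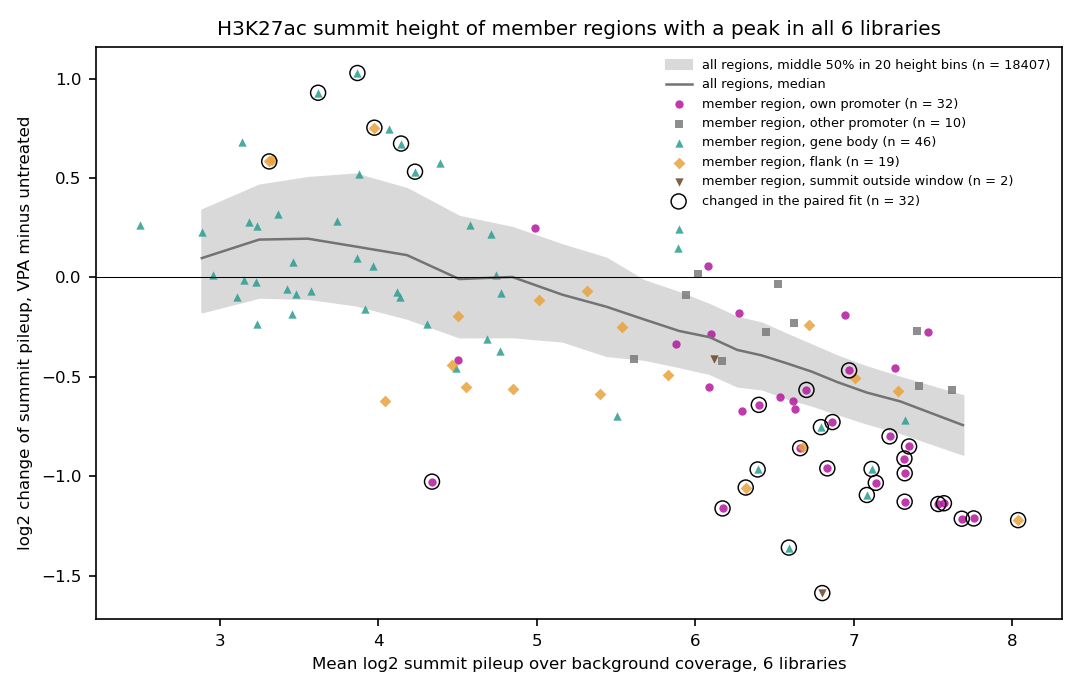
Log2 change of the H3K27ac summit pileup, VPA minus untreated, against the mean log2 pileup over background coverage for the 109 member regions with a peak in all 6 libraries. Symbols give the place of the summit, circles mark the 32 regions called in the paired fit, and the grey line and band are the median and middle 50% of all 18407 regions; both the band and the member promoters drop below 0 at the right, where the summits are tall.

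At the FOXB1 promoter (chr15:59998991-60007234) the summit pileup was 144, 99.2 and 87.8 times the background coverage in untreated replicates 1 to 3 and 67.4, 39.5 and 42.1 times in VPA-treated ones. The pairs all fell and the groups did not overlap. The log2 fold enrichment changed by -1.46 ± 0.22 (SE, n = 3 pairs; limma with the replicate block, Benjamini-Hochberg adjusted *p* = 0.0016). The pileup in VPA-treated cells was 0.447 of that in untreated cells.

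A region 4.26 kb upstream of the main GATA3 start site, inside the annotated gene (chr10:8044481-8051845), showed 189, 147 and 133 times background before and 77.0, 52.4 and 54.1 times after VPA. Its change was -1.45 ± 0.20 (SE; limma with block, Benjamini-Hochberg adjusted *p* = 0.00097), and the pileup fell to 0.390 of the untreated level. The promoter of the same gene did not pass the paired fit (adjusted *p* = 0.075, limma, Benjamini-Hochberg) and passed on the pileup with a log2 change of -0.67 (adjusted *p* = 0.046). GATA3 therefore lost height more clearly at the upstream region than at the start site, though the difference between the regions was not tested. GATA6 fell at its promoter (chr18:22166744-22174111), from 391, 283 and 276 times to 184, 118 and 113 times background, with a change of -0.93 ± 0.20 (limma with block, Benjamini-Hochberg adjusted *p* = 0.0067). GATA4 fell at a region 1.33 kb from its main start site, by 0.85 on the log2 scale (limma with block, adjusted *p* = 0.010), and its other 4 regions did not pass. For GATA2 the only region present in all libraries, 3.75 kb into the gene, had 265, 189 and 174 times before and 151, 111 and 116 times after VPA, without overlap, but did not pass either fit (adjusted *p* = 0.158 with the block and 0.053 on the pileup, limma).

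FOXP1 moved both ways within a single gene. Its promoter region (chr3:71579387-71585672) went from 412, 304 and 285 times to 190, 117 and 129 times background, a change of -1.24 ± 0.24 (SE; limma with block, Benjamini-Hochberg adjusted *p* = 0.0037). A region 505.6 kb into the gene (chr3:71075745-71079879) went from 15.2, 12.4 and 14.5 times to 25.3, 23.3 and 18.8 times, a change of 1.22 ± 0.26 (adjusted *p* = 0.0070, limma). In both regions the groups did not overlap. Of the 6 member regions that rose in the paired fit, 3 were in FOXP1, 1 in the body of FOXP4, 1 beside FOXN4 and 1 beside FOXB2. The last of these did not pass on the pileup (adjusted *p* = 0.145, limma). All 6 were low, at 8.55 to 15.7 times background on average in untreated libraries, while the 18 promoters that fell stood at 29.3 to 334 times.

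The insulin- and stress-responsive factor FOXO3 also fell at its promoter (chr6:108556515-108563228), from 345, 244 and 248 times to 152, 111 and 115 times background (change -1.14 ± 0.20, limma with block, Benjamini-Hochberg adjusted *p* = 0.0021). The FOXF2 promoter (chr6:1386707-1393457) went from 425, 219 and 240 times to 174, 107 and 113 times (change -1.14 ± 0.19, adjusted *p* = 0.0021, limma). FOXP2, a factor of speech-related circuits in the brain, fell at a region 328 kb upstream of its main start site (chr7:114082396-114089200). This region spans the first base of the annotated gene, and went from 248, 177 and 177 times to 123, 78.2 and 83.3 times. The promoter at the main start site of FOXP2 did not pass (change -0.35, adjusted *p* = 0.260, limma). In the domain over FOXC1 the peak of highest fold enrichment went from 545, 347 and 342 times to 228, 150 and 149 times (change -0.96 ± 0.21, adjusted *p* = 0.0076, limma), while its covered length overlapped between treatments. The promoters of FOXD3, FOXI3, FOXN4, FOXO3B, FOXO6, TBX6 and TBX20 had changes between -0.24 and 0.44 and did not pass either fit. Across the set the change was thus uneven: the median over the 109 regions was -0.22, against -0.14 over all regions.

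**Figure D4:**
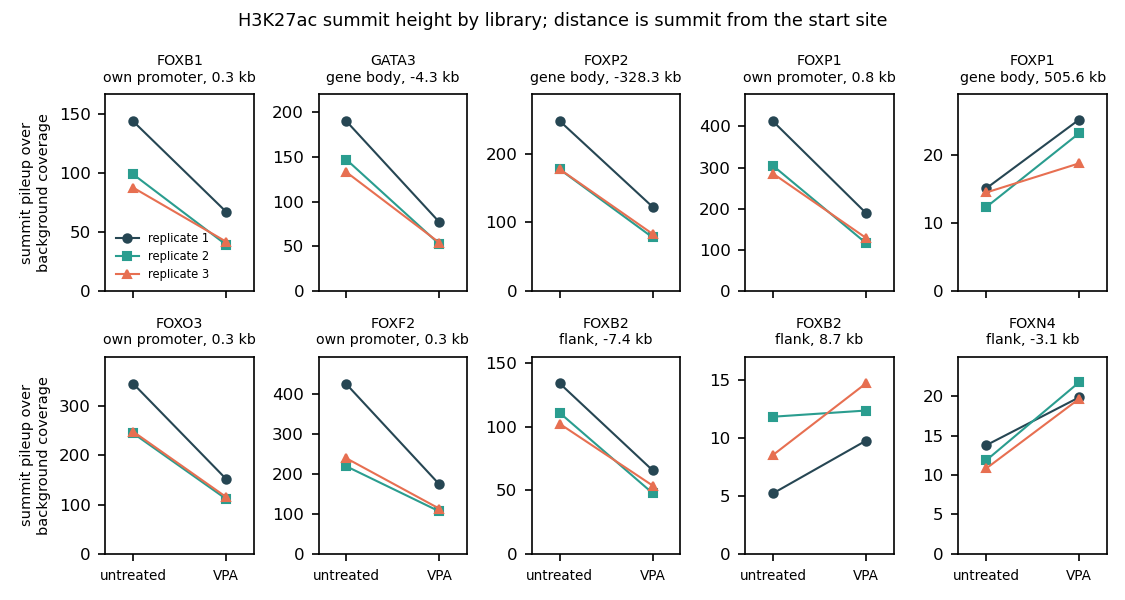
H3K27ac summit pileup over background coverage in each library for the 10 member regions with the largest change in the paired fit, untreated on the left and VPA on the right of each panel, with lines joining the libraries of a replicate number. The 7 tall regions drop in every pair and the 3 low ones, in FOXP1 and beside FOXB2 and FOXN4, rise.

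These heights are relative to each library's own background, and the methods name no added reference chromatin, so a loss of acetylation at tall summits and a wider spread of the mark elsewhere cannot be told apart. The median log2 change of the pileup over all regions was -0.28, and setting it to 0 gave 15 member regions higher and 38 lower (all regions 11.1% and 25.2%), with 22 of 32 own promoters lower (68.8%, against 37.6% of all promoter regions) and 1 higher. Setting the median of the paired fit to 0 gave 6 higher and 22 lower (all regions 6.45% and 8.57%), with 14 own promoters lower (43.8%, against 11.4%). Leaving out a library changed the number of pileup calls from 31 to as few as 4 (without VPA replicate 2, where 2.00% of all regions were called) or 11 (without VPA replicate 3, 3.76%) and as many as 52 (without VPA replicate 1, 44.8%).

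Regions with H3K27ac in a single treatment lay inside and beside the genes, and none had its summit at a promoter. Of the 285 regions, 4 were in all 3 VPA-treated and no untreated libraries (1.40%, against 4.12% of all 55382 regions) and 0 in all untreated and no VPA-treated ones (against 0.139%). They were in the body of FOXK2 at chr17:82579390-82581013, 59.8 kb into the gene, in FOXP1 at chr3:71137028-71137591 and chr3:71138954-71139944, about 446 and 444 kb into the gene, and 7.28 kb upstream of FOXM1 at chr12:2883818-2884664. The FOXK2 region had a fold enrichment of 2.35, 3.06 and 3.70 in the 3 VPA-treated libraries, so it was a low peak. In all, 76 of the 285 regions were in no untreated library, against 21817 of all 55382 regions, and 18 were in no VPA-treated library, against 2879. Of the 76, 60 lay in gene bodies and 16 in flanks, and of the 18, 11 and 7. Without replicate 1 of both treatments, 19 regions were in every VPA-treated library only (all regions 13.03%) and 3 in every untreated library only (0.885%), and with lists of equal length the 4 became 0.

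Few changes of CTCF were called at these genes. A CTCF peak lay in the window of 50 members in all 6 libraries, and 11 had none, these being FOXD4 and its 5 copies, FOXI2, FOXL3, FOXO3B, FOXR1 and TBX19. Peaks numbered 125, 181 and 171 in untreated and 128, 160 and 153 in VPA-treated libraries, a ratio of 0.925 against 0.940 for all genes. Covered length was higher in every VPA-treated library for 2 members, FOXC1 and FOXE1 (background 1.11%), and lower for 1, FOXM1 (background 1.64%). FOXC1 had 1251, 1453 and 1500 bp before and 1720, 1845 and 1528 bp after VPA. FOXE1, the thyroid forkhead factor, had 567, 750 and 766 bp and then 787, 785 and 828 bp. For both FOXC1 and FOXE1 the lowest VPA-treated library lay just above the highest untreated one. FOXM1 had 2249, 2373 and 2216 bp and then 1639, 1957 and 1803 bp, with 3 peaks in each untreated and 2 in each VPA-treated library. FOXM1 was thus covered by less CTCF and more H3K27ac in every VPA-treated library. Both its CTCF and its H3K27ac call were lost with lists of equal length and with the gene body only. The FOXM1 window also held 2 start sites of other protein-coding genes. Without untreated replicate 1 the number of members lower throughout was 13, where 19.6% of all genes were, and without VPA replicate 1 the number higher was 6, where 9.66% were, so both were near the background.

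**Figure D5:**
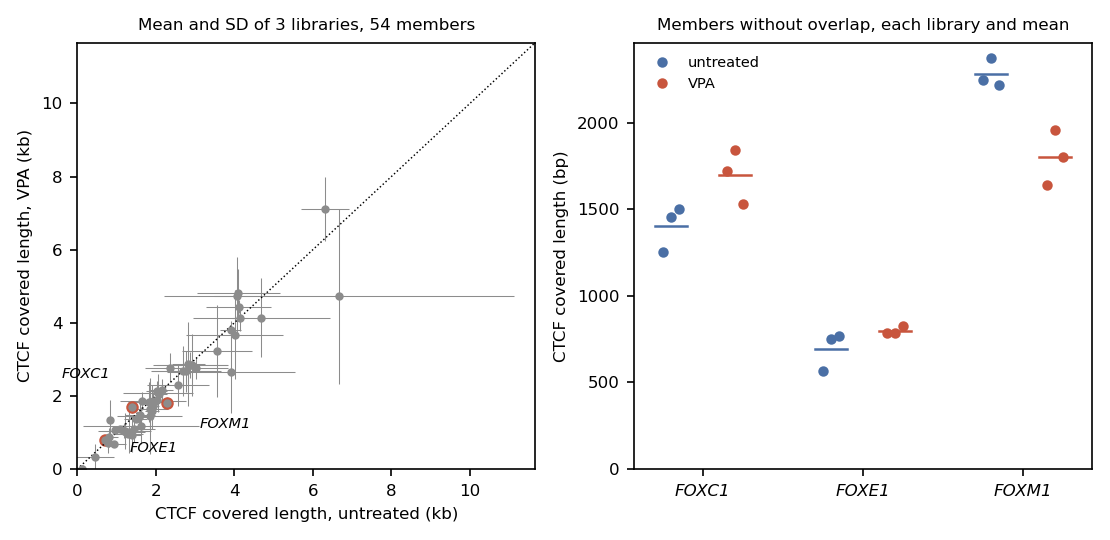
CTCF covered length of the 54 members with a CTCF peak, as the mean and SD of 3 untreated (horizontal axis, kb) and 3 VPA-treated libraries (vertical axis, kb), with the dotted line marking equal values, and at the right each library of the 3 members without overlap, in bp. FOXC1 and FOXE1 lie above the line and FOXM1 below it.

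Of 201 CTCF regions at the members, 104 held a peak in all 6 libraries. With limma on the log2 fold enrichment, 0 of these and 0 of all 27794 passed a Benjamini-Hochberg adjusted p of 0.05 (background 0%), and 1 member region had an unadjusted p under that value. That region lay in the coding exon of FOXC1 (chr6:1611190-1611981), where fold enrichment was 3.39, 4.88 and 5.80 before and 13.2, 13.9 and 12.3 after VPA, without overlap. Its log2 change was 1.52 ± 0.36 (SE) and its adjusted *p* = 1.00 (limma). In simulated data of the same spread this test found 28.4% of regions changed by 4 on the log2 scale and 1.49% of those changed by 2, so changes of that size could be missed. The block and the pileup fits found 0% of either in the same simulation and are not read. CTCF regions were in all untreated and no VPA-treated libraries in 3 cases (1.49%, against 0.326% of all 69985 regions) and the opposite in 0 (against 0.186%).

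The 3 CTCF regions found only in untreated cells all lay in introns of long genes. The region in FOXO1 was at chr13:40564409-40564997 with a fold enrichment of 4.30, 5.04 and 5.41 in untreated libraries. The one in FOXN3 was at chr14:89388773-89389342 with 4.08, 7.08 and 9.46. The remaining one was in FOXP1. These regions were low beside the median fold enrichment of 36.5 over the 104 regions in every library. The 201 bases around the FOXO1 and FOXN3 summits are given first, from the hg38 plus strand. They are set beside those of the FOXC1 and GATA2 summits, which stayed. The GATA2 bases hold a match, in capitals, to a short CTCF core (CCA, 2 free bases, AG, 2 free bases, GG). GATA2 was picked among the regions with such a match, so it makes no contrast with the lost regions. The FOXC1 bases hold no match. The GATA2 match lies 83 bases from the summit, near the edge of the window, so the capitals do not mark the summit itself.
FOXO1, chr13:40564510-40564710: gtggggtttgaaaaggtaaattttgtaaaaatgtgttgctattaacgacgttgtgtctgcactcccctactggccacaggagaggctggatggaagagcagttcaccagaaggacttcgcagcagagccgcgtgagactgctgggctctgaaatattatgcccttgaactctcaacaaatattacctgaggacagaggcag
FOXN3, chr14:89388979-89389179: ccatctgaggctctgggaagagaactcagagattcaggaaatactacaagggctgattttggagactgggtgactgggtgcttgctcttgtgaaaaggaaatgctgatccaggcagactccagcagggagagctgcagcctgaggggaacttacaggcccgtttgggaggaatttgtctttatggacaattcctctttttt
FOXC1, chr6:1611465-1611665: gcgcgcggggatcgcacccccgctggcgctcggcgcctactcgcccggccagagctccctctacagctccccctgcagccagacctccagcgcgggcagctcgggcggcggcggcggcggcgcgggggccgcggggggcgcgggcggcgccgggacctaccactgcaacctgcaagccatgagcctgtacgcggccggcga
GATA2, chr3:128497917-128498117: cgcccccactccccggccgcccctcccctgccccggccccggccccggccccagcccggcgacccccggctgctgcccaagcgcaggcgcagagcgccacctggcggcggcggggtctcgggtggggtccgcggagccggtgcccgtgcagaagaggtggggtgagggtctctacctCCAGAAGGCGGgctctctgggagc
The core, read on both strands, was in neither of these FOXO1 and FOXN3 summits and in 50 of the 228 such regions of the genome (21.9%). It was in 29 of 104 member regions present in all libraries (27.9%), against 37.1% of all such regions and 6.63% of H3K27ac regions, and its absence says only that these letters are not in this window.

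The overlap of both marks was counted at CTCF regions. Of the 104 CTCF regions in all libraries, 41 (39.4%) overlapped an H3K27ac peak in all 6 H3K27ac libraries, against 20.4% of all CTCF regions. The overlap numbered 42, 57 and 54 in untreated and 48, 60 and 58 in VPA-treated libraries, so the treatments overlapped. In 0 member regions was the H3K27ac found in VPA-treated libraries only, against 2.12% of all CTCF regions. At 14 members (21.5%, all genes 20.3%) both marks had a promoter peak in all 12 lists.

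Genes related to the set were compared as well. Of 4 other T-box genes (those without a TBX symbol), 1, MGA, a repressor that binds with MAX, was covered by more H3K27ac in every VPA-treated library, at 5760, 7012 and 7664 bp before and 8005, 9473 and 9937 bp after. Of 12 partners and cofactors, 1, the signal transducer SMAD4, was higher and 0 lower. Of all genes, 26.5% were higher and 0.157% lower. Promoters were acetylated in all 6 libraries for 2 of the 4 T-box genes and 10 of the 12 partners, against 61.0% of all genes.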

How the data were processed

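H3K27ac and CTCF were measured by ChIP-seq in untreated and VPA-treated HEK293T cells (12 libraries with peak lists). The authors aligned reads to hg38 with Bowtie2 and called peaks per library with MACS (MACS3 3.0.0a7 in the submitters' processing notes) at a q-value of 0.05; whether an input was given to the caller is not given in the sources used here. The deposited narrowPeak files give, for each peak, a fold enrichment (a ratio), a −log10 p-value, a −log10 q-value and a display score. No read totals were given, so intervals and limits from counts could not be computed. Peak lists were intersected (1 bp) with GENCODE release 44 gene bodies and 10 kb either side, and with 1 kb around start sites. A gene was called where no library of one treatment overlapped the other. Peaks of an antibody were merged into regions, and log2 fold enrichment in regions present in all 6 libraries was tested with limma 3.58.1 (R 4.3.3; trend, Benjamini-Hochberg over all regions, 0.05). The summit pileup in fragments was recovered from the deposited fold enrichment and −log10 p-value (whole within 0.05 fragments in 100% of peaks) and divided by the background coverage of the library.

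Groups came from the sample labels. Same-numbered H3K27ac libraries deviated together from their group means (*r* = 0.865, 0.585 and 0.591 for replicates 1 to 3), so paired values stand beside the unpaired ones. Replicates 2 and 3 also correlated across numbers (0.607 and 0.554), so the pairing mainly sets replicate 1 apart, and the labels give only the number. Named were all GATA genes, members without overlap, the 10 with the most coverage, members with regions in a single treatment, members without a peak, and the 10 regions with the largest change among those called. As the unpaired fit called none, this last rule was applied to the paired fit, and it and the further members named with values were chosen after values were seen. A member and a sequence that the rules would name are not reported here. The members and lists were chosen with earlier results of these data known. Alternatives were lists of equal length, a −log10 q-value of at least 3, gene body only, left-out libraries, the replicate block and median centring. Scripts were tested on simulated data: for H3K27ac, regions changed by 2 on the log2 scale were recovered in 4.48% (unpaired), 50.7% (paired) and 92.5% (pileup) of cases among 18407 regions.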

Additional observations from a re-analysis of the deposited data

How the results depend on the processing

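The covered length at the members stayed higher after VPA under every alternative run, by 38.0 to 113 kb (70.2 in all) when single libraries were left out. The peak number (mean difference 31.7; 23.3 to 40.8 when single libraries were left out) turned to -22.7 with lists of equal length. Members higher in H3K27ac covered length throughout numbered 8 (26.5% of all genes). The count was 3 with lists of equal length (17.4%), 3 for the gene body only (21.0%) and 4 by peak number (10.2%). It was 27 with the replicate block (61.9%), 31 without replicate 1 in both treatments (64.2%) and 8 to 31 when single libraries were left out. Members lower throughout numbered 0 (0.157%). The count was 4 with the block (0.984%), 5 without replicate 1 (1.67%) and 0 to 5 with single libraries left out. H3K27ac regions only in VPA numbered 4; the count was 2 with peaks kept from a −log10 q of 3 upwards, 0 with lists of equal length, 19 without replicate 1 and 7 to 16 with single libraries left out; those only in untreated numbered 0, then 3 without replicate 1 and 0 to 3.

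For CTCF, 2 members were higher throughout (1.11% of all genes). The count was 4 for the gene body only (1.39%), 0 by peak number (0.351%), 6 without replicate 1 (10.7%) and 2 to 6 with single libraries left out. Lower throughout was 1 (1.64%), or 2 with lists of equal length (FOXO3 and GATA2, without FOXM1, against 1.82%). That count was 13 without replicate 1 (20.1%) and 1 to 13 with single libraries left out. CTCF libraries share only a number (*r* = 0.340, -0.045 and 0.477). With the block 6 members were higher (6.67% of all genes) and 7 lower (15.0%).

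Changed H3K27ac regions in limma numbered 0 without a block, 32 with the replicate block (16.5% of all regions) and 31 on the pileup (15.4%). They numbered 71 on the pileup with the block (62.9%), 28 with the block and the median set to 0 (15.0%), and 53 on the pileup with the median set to 0 (36.3%). Without replicate 1, 2 or 3 the block gave 20, 25 and 12 and the pileup 65 (61.9% of all regions), 1 and 1; with single libraries left out the pileup gave 23, 25 and 26 (untreated replicates 1 to 3) and 52, 4 and 11 (VPA replicates 1 to 3) and the unpaired fold enrichment 0. CTCF gave 0 throughout. The causes were not tested.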
